A study of Neurospora crassa with 30 samples.

Results

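The 5 genes described here encode enzymes of the glyoxylate cycle and of gluconeogenesis in the filamentous fungus *Neurospora crassa*. They were chosen by name and not by their values, as *acu-3* (NCU04230, isocitrate lyase), *acu-9* (NCU10007, malate synthase), *acu-5* (NCU06836, acetyl-CoA synthetase), *acu-6* (NCU09873, phosphoenolpyruvate carboxykinase) and *fbp-1* (NCU04797, fructose-1,6-bisphosphatase). All 5 were among the 9758 genes of the count tables and among the 8501 that passed the filter on low counts. RNA was sequenced from mycelia of the wild type strain FGSC 2489, with 3 biological replicates on each of 10 carbon sources and so 30 libraries in all. Every culture was grown for 16 h in Vogel's minimal medium with 2% sucrose at 25 °C in constant light, washed in medium without carbon, and then held for 4 h on 1 carbon source. The soluble sources, each at 2 mM, were cellobiose, maltose and trehalose (disaccharides of glucose), the sugars fructose, mannose, sorbose and xylose, and glycerol, a polyol. The polymeric sources were avicel, a purified cellulose in fine crystals, and xyloglucan, which comes from plant cell walls. No culture without carbon was analysed here, so a level on 1 source can be read only against the other sources.

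The glyoxylate cycle is the bypass that lets a cell build 4-carbon acids from acetyl units. Acetyl-CoA synthetase makes acetyl-CoA from acetate, isocitrate lyase splits isocitrate into succinate and glyoxylate, and malate synthase joins glyoxylate to a further acetyl-CoA. Phosphoenolpyruvate carboxykinase then draws oxaloacetate into gluconeogenesis, and fructose-1,6-bisphosphatase carries out the last one-way step toward hexose phosphates. In *N. crassa* mutants in the *acu* genes were found through their failure to grow on acetate, and the pathway is known for its repression by readily used sugars.

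Reads on genes ran from 13018483 to 21925749 per library. Normalized levels are given as counts per 1000000 reads (CPM) after TMM scaling, whose factors lay between 0.893 and 1.06. Each of 3 marker genes was highest on the source their product acts on: *cbh-1*, a cellobiohydrolase, averaged 23500 CPM on avicel, *gla-1*, a glucoamylase, 8617 CPM on maltose, and the xylose reductase gene *xr* 4693 CPM on xylose. Of the 30 libraries 29 lay closest to the other libraries of their own source. The exception was the library labelled mannose replicate 2, whose root mean square distance in log2 CPM over the tested genes was 0.51 to the fructose mean and 0.56 to its own group, and results that rest on it are given with and without it. Markers of conidia (*con-6*, *con-10* and *eas*) were detected in every library, and their summed level ran from 981 to 1432 CPM on cellobiose up to 15884 to 27595 CPM on avicel. Against the other nine sources 3 of these 3 markers were lower on cellobiose (10.5% of all genes). On avicel 2 were higher (7.11% of all genes), and on mannose 2 were higher (5.81%). On each of the other sources 1 was called, where 3.26% to 18.0% of all genes were. The call was higher on fructose, maltose, xyloglucan and xylose and lower on glycerol, sorbose and trehalose. The part of conidial RNA in the results was not tested.

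All 5 genes varied over the 10 carbon sources (edgeR quasi-likelihood F test, adjusted p from 2.02e-12 for *acu-6* to 4.65e-06 for *acu-5*), as did 93.1% of all genes tested. Their ranges were wide in comparison with other genes. The highest mean over the lowest mean was 32.8-fold for *acu-6*, 25.2-fold for *acu-3*, 18.7-fold for *acu-9*, 12.2-fold for *acu-5* and 9.14-fold for *fbp-1*, against a median of 2.50-fold over the 8501 genes. Per kilobase of gene span the mean level over all libraries was highest for *acu-6* (265 CPM per kb), followed by *fbp-1* (219), *acu-9* (183), *acu-3* (119) and *acu-5* (90.2). Raw counts of the 5 genes were between 467 and 54276 reads in a library, and intervals from counting error alone were not computed for levels this deep. None of the 5 genes overlapped another annotated gene. In RefSeq assembly NC12 they lie on chromosome V (*acu-3*, 5289251 to 5292173), chromosome I (*acu-9*, 710761 to 713665), chromosome II (*acu-5*, 1822777 to 1826393) and chromosome VI (*acu-6*, 1824832 to 1828327, and *fbp-1*, 854430 to 856333).

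**Figure D1:**
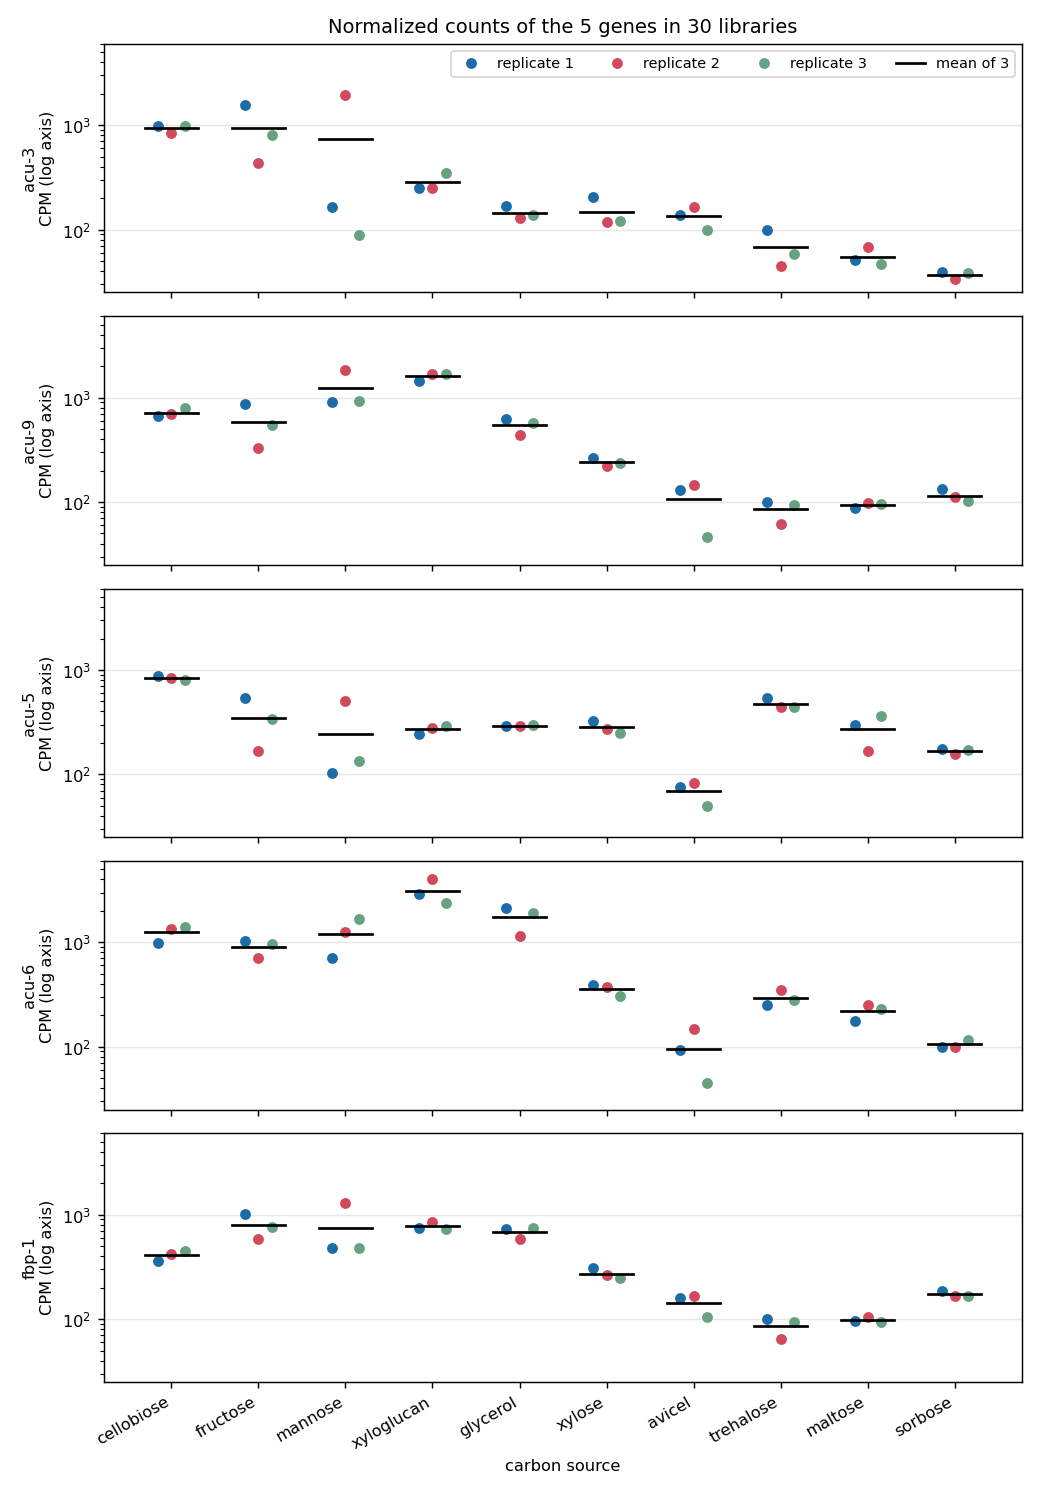
Normalized level (CPM, log axis) of the 5 genes in each of the 30 libraries by carbon source, with points coloured by replicate number and a bar at the mean of 3. *acu-3*, *acu-9*, *acu-6* and *fbp-1* have higher means on cellobiose, fructose, mannose and xyloglucan than on avicel, trehalose, maltose and sorbose, with all 3 mannose libraries included, whereas *acu-5* follows another order, and mannose replicate 2 lies far above its partners for *acu-3*.

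The isocitrate lyase gene *acu-3* was highest on cellobiose and fructose, and on mannose through 1 library, and lowest on sorbose. On cellobiose it stood at 979, 845 and 987 CPM (937 ± 80.0, SD, n = 3). On fructose it stood at 1554, 432 and 807 CPM (931 ± 571, SD, n = 3). The means of these 2 sources were close, but the fructose libraries spread so widely that they overlapped those on cellobiose on either side. On mannose the values were 164, 1938 and 88.1 CPM, so that 1 library carried the highest *acu-3* level of the series while its partners lay near or below those on xylose and glycerol. The mannose mean of 730 CPM was 126 CPM without that library. Xyloglucan was intermediate (284 ± 56.5 CPM, SD, n = 3), followed by xylose (148), glycerol (145), avicel (135), trehalose (68.0) and maltose (55.1). The sorbose libraries, at 39.6, 33.6 and 38.2 CPM, lay below every other library.

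The malate synthase gene *acu-9* did not follow its partner in the cycle. Its highest mean was on xyloglucan, with 1431, 1700 and 1665 CPM (1598 ± 146, SD, n = 3). Mannose came next with 911, 1836 and 933 CPM, and here the other 2 mannose libraries also lay above every cellobiose library (661, 691 and 797 CPM). Fructose (579 ± 270 CPM, SD, n = 3) and glycerol (544 ± 98.2) stood close to each other, and xylose followed at 240 CPM. Sorbose (115), avicel (108), maltose (93.7) and trehalose (85.6) formed a low group whose highest library stood at 145 CPM, and every library of the other six sources lay above it.

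The acetyl-CoA synthetase gene *acu-5* was set apart by its level on trehalose and, with all libraries, by means on several sources that lay close together. Cellobiose gave 878, 843 and 799 CPM (840 ± 39.2, SD, n = 3), above all other libraries. Trehalose, on which *acu-9* and *fbp-1* had their lowest means, gave the second highest *acu-5* mean, with 539, 446 and 437 CPM (474 ± 56.2, SD, n = 3). From fructose (349) through glycerol (293), xylose (283), maltose (273), xyloglucan (269) and mannose (246) the means fell off gradually. The fructose libraries were far apart, at 536, 168 and 342 CPM. Mannose replicate 2 stood at 500 CPM and its partners at 103 and 135 CPM. Without replicate 2 the mannose mean was 119 CPM, below that on sorbose (167). Avicel, at 74.9, 81.9 and 49.5 CPM, lay below every other library.

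The phosphoenolpyruvate carboxykinase gene *acu-6* had the widest range of the 5. Xyloglucan gave 2934, 4014 and 2389 CPM (3112 ± 827, SD, n = 3), each above every library on another source. Glycerol was second with 2129, 1143 and 1917 CPM (1730 ± 519, SD, n = 3), which overlapped cellobiose (1251 ± 234) and mannose (1212 ± 490). Fructose stood at 897 ± 166 CPM (SD, n = 3), and the libraries on xylose, at 393, 370 and 306 CPM, all lay below those on fructose. Trehalose (294), maltose (218), sorbose (105) and avicel (94.9) followed. The avicel libraries stood at 92.4, 147 and 44.8 CPM and, with those on sorbose, lay below all others.

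The fructose-1,6-bisphosphatase gene *fbp-1* was highest on fructose, xyloglucan and glycerol, and on mannose through 1 library. Fructose gave 1015, 586 and 769 CPM (790 ± 215, SD, n = 3). Xyloglucan gave 743, 855 and 730 CPM (776 ± 68.8). Glycerol gave 727, 585 and 740 CPM (684 ± 86.4). These 3 groups overlapped one another. Mannose stood at 477, 1289 and 478 CPM, with a mean of 748 CPM that was 477 CPM without replicate 2, and its other libraries lay below every library of those groups. The libraries of all these sources were above those on cellobiose (410 ± 43.8 CPM, SD, n = 3), and below cellobiose came xylose (271), sorbose (173), avicel (142), maltose (97.9) and trehalose (86.4).

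Neighbours in these orders were mostly not separable. The tests of neighbours and of pairs of sources were made with all 30 libraries and were not repeated without mannose replicate 2. With 9 steps in each gene's order, 1 of the 45 steps passed an adjusted p of 0.01 in edgeR's test, the drop of *acu-6* from fructose to xylose (log2 difference 1.33 ± 0.32, SE, adjusted p = 0.00179). Over all tested genes 4.81% of such steps passed. Between any pair of sources the genes differed more often, in 33 of 45 pairs for *acu-6*, 31 for *acu-9* and for *fbp-1*, 21 for *acu-3* and 16 for *acu-5*, where 40.6% of all gene and pair combinations passed.

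Each carbon source was then compared with the mean of the other nine to ask where the pathway stood high or low. These 10 comparisons share samples and are not independent. The soluble sources, among them disaccharides and glycerol, were matched at 2 mM and not by amount of carbon. The part of that difference was not tested. Of the 50 combinations of gene and source, 28 passed a fold over 2 and an adjusted p under 0.01. The share of all tested genes that passed ran from 3.26% on xylose to 18.0% on trehalose. With all libraries the calls in any 1 source went the same way. The called genes were higher on cellobiose, fructose, glycerol, mannose and xyloglucan and lower on avicel, maltose, sorbose and trehalose. Without mannose replicate 2 the calls on mannose were mixed, with 2 genes higher and 1 lower.

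**Figure D2:**
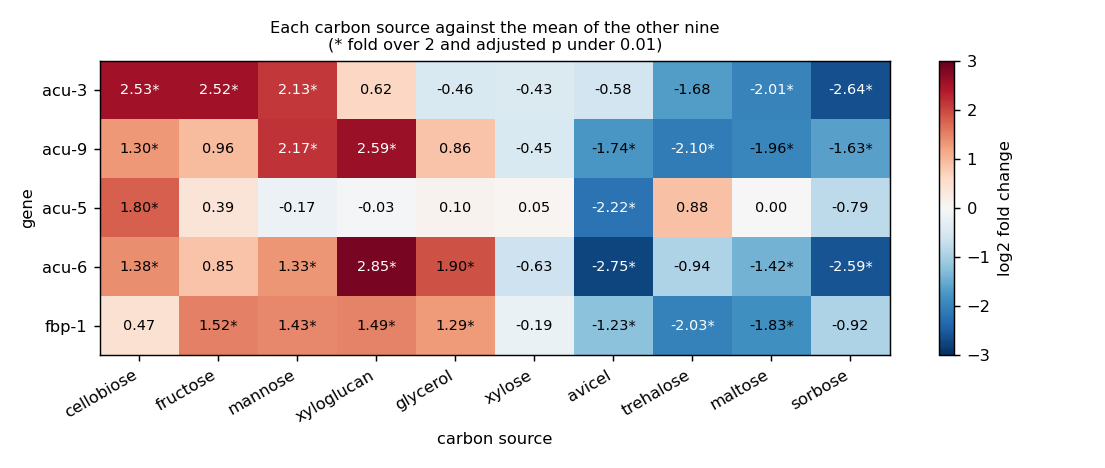
Log2 fold change of each gene on each carbon source against the mean of the other nine, as numbers and colours, with an asterisk where the fold was over 2 and the adjusted p under 0.01. The 28 asterisks fall on 9 of the 10 sources, none on xylose, and *acu-5* carries only those on cellobiose and avicel.

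On cellobiose 4 of the 5 genes rose (17.7% of all genes were called, 7.19% higher and 10.5% lower). The log2 fold changes were 2.53 ± 0.38 (SE) for *acu-3*, 1.795 ± 0.25 for *acu-5*, 1.38 ± 0.21 for *acu-6* and 1.30 ± 0.22 for *acu-9*, with adjusted p of at most 1.14e-05. The exception was *fbp-1*, at 0.47 (adjusted p = 0.0347). Cellobiose was thus the only source on which both *acu-3* and *acu-5* were called higher, and it was also the source with the lowest summed level of the conidial markers.

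On xyloglucan 3 of the 5 genes rose (10.5% of all genes were called, 4.47% higher and 6.07% lower). These were *acu-6* (log2 fold change 2.85 ± 0.19, SE, adjusted p = 2.35e-11), *acu-9* (2.59 ± 0.19) and *fbp-1* (1.49 ± 0.18). The isocitrate lyase gene *acu-3* stood at 0.62 ± 0.45 (adjusted p = 0.243) and *acu-5* at −0.03 ± 0.30 (adjusted p = 0.94). Without mannose replicate 2 the *acu-3* value was 0.90 (adjusted p = 0.00216 in edgeR's test), still under the fold limit.

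On mannose 4 of the 5 genes were called higher with all libraries (13.9% of all genes were called, 5.81% higher and 8.12% lower): *acu-9* (log2 fold change 2.17), *acu-3* (2.13), *fbp-1* (1.43) and *acu-6* (1.33). Without mannose replicate 2, in a fit in which 15.1% of all genes were called, 2 genes were higher and 1 was lower. The genes that remained called higher were *acu-9* (1.75 ± 0.22, SE, adjusted p = 5.85e-07) and *acu-6* (1.31 ± 0.25, adjusted p = 0.000119). The value of *acu-3* changed sign (−0.40 ± 0.32, adjusted p = 0.279), *fbp-1* went under the fold limit (0.78, adjusted p = 9.59e-05), and *acu-5* was called lower (−1.22 ± 0.28, adjusted p = 0.000588) after −0.17 with all libraries. In mannose replicate 2 the level of *acu-3* was 15.4-fold, of *acu-5* 4.21-fold, of *fbp-1* 2.70-fold, of *acu-9* 1.99-fold and of *acu-6* 1.05-fold that of the mean of its partners. Of the 3 conidial markers 2 were called higher on mannose with and without this library, and *con-6* (2945 CPM) and *con-10* (231 CPM) had their highest means there. Mannose replicate 2 held the lowest of the 3 values for both, with *con-6* at 2805, 796 and 5236 CPM and *con-10* at 304, 132 and 256 CPM.

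**Figure D3:**
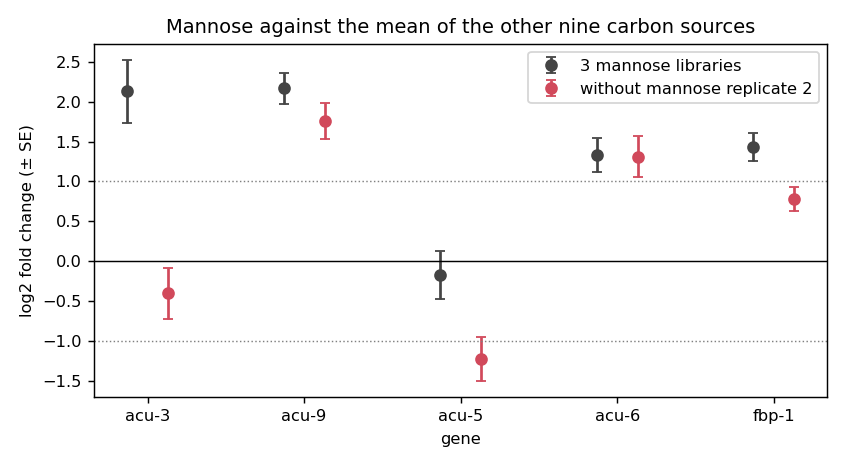
Log2 fold change (± SE) on mannose against the mean of the other nine sources, with all 3 mannose libraries (grey) and without mannose replicate 2 (red), with dotted lines at a fold of 2. The *acu-3* value moves from 2.13 to −0.40 and *acu-5* from −0.17 to −1.22, while *acu-9* and *acu-6* stay above 1.

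On fructose 2 of the 5 genes rose (7.53% of all genes were called, 3.45% higher and 4.08% lower), *acu-3* (log2 fold change 2.52 ± 0.38, SE, adjusted p = 6.68e-06) and *fbp-1* (1.52 ± 0.17). The malate synthase gene stood just under the fold limit (0.96 ± 0.22, adjusted p = 0.000861) and was called when fructose replicate 2, fructose replicate 3 or mannose replicate 2 was left out (1.24, 1.00 and 1.01). On glycerol 2 genes rose as well (5.09% of all genes were called, 3.34% higher and 1.75% lower), *acu-6* (1.90 ± 0.20, adjusted p = 9.53e-08) and *fbp-1* (1.29 ± 0.18). There *acu-9* stood at 0.86 (adjusted p = 0.00361), *acu-5* at 0.10 and *acu-3* at −0.46.

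On avicel 4 of the 5 genes fell (10.6% of all genes were called, 7.11% higher and 3.47% lower). The log2 fold changes were −2.75 ± 0.30 (SE) for *acu-6*, −2.22 ± 0.36 for *acu-5*, −1.74 ± 0.28 for *acu-9* and −1.23 ± 0.22 for *fbp-1*. Isocitrate lyase was the exception, at −0.58 ± 0.50 (adjusted p = 0.33). The conidial markers were highest in sum on this source, where *eas* alone averaged 17583 CPM. The other markers, *con-6* and *con-10*, had their highest means on mannose.

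On maltose 4 of the 5 genes fell (8.23% of all genes were called, 4.51% higher and 3.73% lower): *acu-3* (log2 fold change −2.01), *acu-9* (−1.96), *fbp-1* (−1.83) and *acu-6* (−1.42). The exception was *acu-5*, which stood at 0.00 ± 0.30 (adjusted p = 0.994). The *acu-3* call was lost when any 1 of the maltose libraries was left out, with log2 fold changes from −2.19 to −1.90 and adjusted p from 0.0158 to 0.0338. Without mannose replicate 2 the call was kept (−1.73, adjusted p = 3.74e-05).

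On sorbose 3 of the 5 genes fell (7.15% of all genes were called, 4.25% higher and 2.91% lower), *acu-3* (log2 fold change −2.64 ± 0.60, SE), *acu-6* (−2.59 ± 0.30) and *acu-9* (−1.63 ± 0.28). For *fbp-1* the value was −0.92 and for *acu-5* −0.79. On trehalose 2 genes fell (18.0% of all genes were called, 9.00% higher and 9.03% lower), *acu-9* (−2.10 ± 0.29) and *fbp-1* (−2.03 ± 0.24). The value of *acu-3* was −1.68 ± 0.55 (adjusted p = 0.0103), at the edge of the threshold, and it was called by DESeq2 (adjusted p = 0.000733) and without mannose replicate 2 (−1.39, adjusted p = 0.00018). The trehalose value of *acu-5* was of the opposite sign, 0.88 ± 0.27 (adjusted p = 0.00688), under the fold limit.

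On xylose 0 of the 5 genes passed in edgeR's test (3.26% of all genes were called, 2.19% higher and 1.07% lower). There 1 gene had an unadjusted p under 0.05, and DESeq2 also called 0. The 5 values ran from −0.63 for *acu-6* to 0.05 for *acu-5*.

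Glycerol was compared with fructose directly, since both were given at 2 mM for 4 h. A glycerol molecule holds fewer carbon atoms than a fructose molecule, so the amount of carbon differed as well as its point of entry. These cannot be told apart here. Glycerol enters metabolism at the level of triose phosphates, from which hexose phosphates are made through fructose-1,6-bisphosphatase, whereas fructose enters as a hexose phosphate. The gene for that enzyme did not pass the test (log2 difference −0.21 ± 0.27, SE, adjusted p = 0.538), with libraries of both sources overlapping. The malate synthase gene (−0.09 ± 0.33, adjusted p = 0.838) and *acu-5* (−0.25 ± 0.40, adjusted p = 0.62) did not pass either. The 1 gene called was *acu-3* (13.5% of all genes were called, 7.99% higher and 5.49% lower). It stood at 170, 129 and 137 CPM on glycerol and at 1554, 432 and 807 CPM on fructose. The groups did not overlap, and the log2 difference was −2.68 ± 0.68 (SE, adjusted p = 0.00191). The carboxykinase gene *acu-6* was on the other side, with 2129, 1143 and 1917 CPM on glycerol and 1025, 710 and 955 CPM on fructose. Those groups did not overlap either, but the log2 difference of 0.95 ± 0.32 (adjusted p = 0.0159) passed neither threshold.

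The *acu-3* call was lost when some single libraries were left out and was stronger without another. Without mannose replicate 2 the log2 difference was −2.68 with adjusted p = 1.47e-06. DESeq2 with all libraries also called *acu-3* lower (adjusted p = 7.67e-05). Without fructose replicate 1, glycerol replicate 2 or glycerol replicate 3 the log2 difference was −2.12, −2.60 or −2.64 and the adjusted p 0.0129, 0.0108 or 0.01002, and without glycerol replicate 2 *acu-6* was called in its place (1.17, adjusted p = 0.00638). The conidial marker *con-10* was also lower on glycerol (log2 difference −2.72, adjusted p = 2.6e-07), 1 of the 3 markers, while the summed level of the 3 was 10671 to 14652 CPM on glycerol and 5899 to 8529 CPM on fructose.

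The balance within the cycle was followed by the ratio of *acu-3* to *acu-9* CPM in each library. The spans of these genes, 2923 and 2905 bp, are nearly equal. The ratio was 0.24 to 0.30 on glycerol, 0.15 to 0.21 on xyloglucan and 1.319 to 1.799 on fructose. It did not overlap between fructose and either of the others. High ratios were not confined to fructose, with 1.22 to 1.48 on cellobiose and 1.06 to 2.18 on avicel. Between glycerol and fructose the mean log2 ratio differed by −2.50, and the exact two-sided permutation test gave p = 0.1, the smallest that 3 libraries against 3 allow (adjusted p = 0.1 over the 4 ratios tested). Over all libraries the ratio ran from 0.094 in mannose replicate 3 to 2.18 in avicel replicate 3. On mannose it split by library, with 0.094 in replicate 3, 0.18 in replicate 1 and 1.06 in replicate 2.

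Ratios with the gluconeogenic genes also did not overlap between these sources. The *acu-3* to *acu-6* ratio was lower on glycerol (0.072 to 0.11) than on fructose (0.61 to 1.52). The *acu-6* to *fbp-1* ratio went the other way, with 1.95 to 2.93 on glycerol and 1.01 to 1.24 on fructose. The ratio of *acu-3* to *acu-5*, the acetyl-CoA synthetase gene, was 0.44 to 0.59 on glycerol and 2.36 to 2.90 on fructose. These ratios also had exact p = 0.1 in the permutation test.

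**Figure D4:**
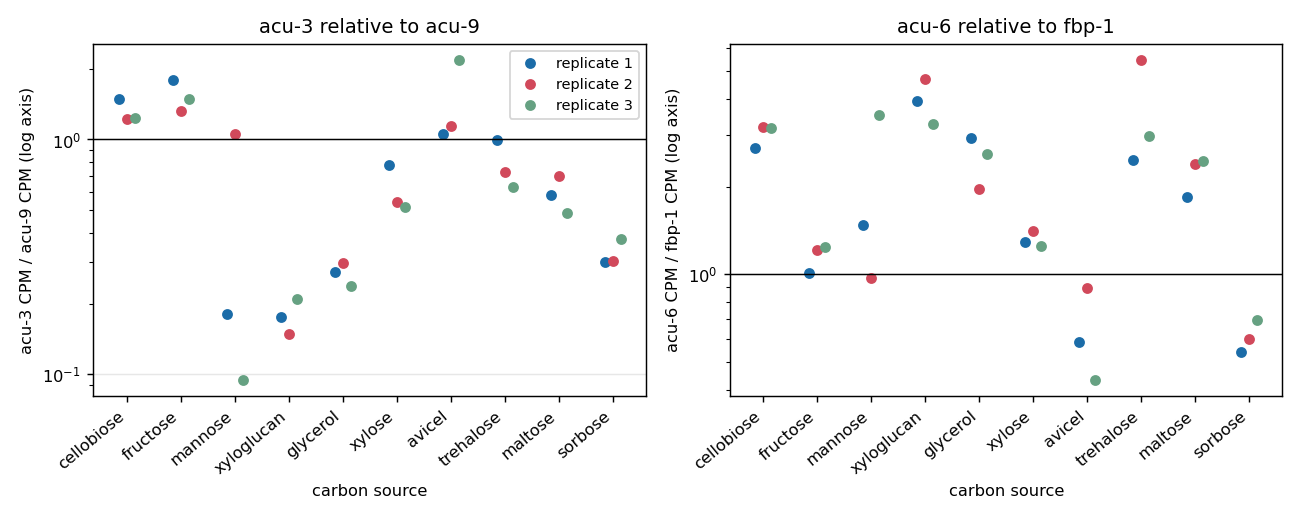
Ratio of *acu-3* to *acu-9* CPM (left) and of *acu-6* to *fbp-1* CPM (right) in each library, log axes, with points coloured by replicate number and a line at 1. On the left the glycerol and xyloglucan libraries sit below 0.30 and those on fructose above 1.3, and the mannose libraries run from 0.094 to 1.06.

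The 5 genes varied more between replicates than most genes did. The biological coefficient of variation in edgeR's fit was 0.53 for *acu-3*, 0.34 for *acu-5*, 0.28 for *acu-9*, 0.27 for *acu-6* and 0.23 for *fbp-1*, against a median of 0.12 over all tested genes. For *acu-3* this was at percentile 99.7 of the tested genes, and for *fbp-1*, the least variable of the 5, at percentile 90.6. These values include mannose replicate 2 and were not computed without it. In the fit without that library the SE of *acu-3* on fructose against the other nine was 0.20 in place of 0.38. The spread was often shared between the genes. Fructose replicate 1 held the highest and fructose replicate 2 the lowest value for all 5 genes. Avicel replicate 2 held the highest and avicel replicate 3 the lowest for all 5, and xylose replicate 1 the highest for all 5. Replicate 1 was also most often the highest on sorbose and trehalose (4 genes each) and on glycerol (3). On maltose and mannose (4 each) and xyloglucan (3) it was replicate 2, and on cellobiose (4) replicate 3. The lowest coefficient of variation of CPM was 1.40%, for *acu-5* on glycerol (288, 293 and 296 CPM).

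The likeness of the 5 patterns was described by correlations over the 10 source means of log2 CPM. Such points share libraries and scaling, and genes with a wide response to the same sources correlate readily, so no p is given. The closest pairs were *acu-9* with *fbp-1* (Pearson r = 0.94, n = 10 sources) and *acu-9* with *acu-6* (0.92), followed by *acu-6* with *fbp-1* (0.84). Isocitrate lyase was less like malate synthase (0.75), and *acu-5* was least like *fbp-1* (0.18). Without mannose replicate 2 these values were 0.93, 0.92, 0.84, 0.67 and 0.15.

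Among the other genes with a mean of at least 10 CPM, the pattern most like *acu-3* was that of *pex7* (r = 0.97), which encodes the receptor for a class of peroxisomal matrix proteins, followed by NCU08997 (0.96) and NCU00316 (0.95), annotated as a peroxisomal adenine nucleotide transporter. NCU07495, NCU05805 and NCU02403, a ubiquinone biosynthesis gene, were most like *acu-9* (0.96 to 0.97). For *acu-5* they were NCU03135, NCU02407 and the kynurenine 3-monooxygenase gene NCU06924 (0.95 to 0.97). For *acu-6* they were *tca-13* (0.95), NCU02826 (0.92) and *acu-9* itself. For *fbp-1* they were the short-chain dehydrogenase gene NCU09735 (0.98), the mitochondrial dicarboxylate transporter gene NCU10732 (0.97) and *acd-3* (0.96). Without mannose replicate 2, NCU08997 (0.97) and NCU00316 (0.97) led for *acu-3* and *pex7* was no longer among the 3. NCU02403 for *acu-9*, *tca-13* and NCU02826 for *acu-6*, *acd-3* for *fbp-1* and all 3 genes named for *acu-5* also dropped out.

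Genes around the pathway were taken from lists. Acetyl units also come from fatty acid oxidation and are moved between compartments as carnitine esters, and 18 genes of these steps were tested. In glycerol against fructose 3 of them were called, all lower, where 13.5% of all genes were called and 5.49% were lower. The median log2 difference was −0.68 over the list and 0.00 over all genes. They were the carnitine acetyltransferase gene NCU01611 (−2.77, adjusted p = 0.000101), the 3-ketoacyl-CoA thiolase gene NCU04796 (−1.02) and *fox-2* (−1.01), whose product acts in peroxisomal beta oxidation. The count was 1 without TMM, with the replicate block and with the covariate of reads outside genes, and 1 to 6 when single libraries were left out.

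NCU01611 resembled *acu-3* in its sources. It stood at 1243, 464 and 777 CPM on fructose and at 131, 99.98 and 133 CPM on glycerol, without overlap. On mannose it stood at 86.9, 682 and 81.4 CPM, again with replicate 2 far above its partners. It ranged 10.9-fold between source means, ahead of *acu-8*, the acetyl-CoA hydrolase gene (8.09-fold, highest on cellobiose at 582 CPM), and the acyl-CoA dehydrogenase gene *acd-2* (7.36-fold, highest on xyloglucan and lowest on trehalose).

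Against the other nine sources, 8 of these 18 genes were lower on trehalose (9.03% of all genes) and 0 higher, and 3 were lower on maltose (3.73% of all genes) and 0 higher. On xyloglucan 5 were higher (4.47% of all genes) and 0 lower, and on fructose 3 were higher (3.45% of all genes) and 0 lower. Cellobiose was mixed, with 2 higher (7.19% of all genes) and 1 lower (10.5%). On avicel, glycerol, sorbose and xylose 0 were called, where 3.26% to 10.6% of all genes were. On mannose 6 were higher (5.81% of all genes) and 0 lower with all libraries, and 4 were higher and 1 lower without mannose replicate 2. The gene that was lower there was *acu-8* (log2 fold change −1.65, adjusted p = 0.0015).

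The citrate cycle list held 20 tested genes. In glycerol against fructose 3 rose, the aconitate hydratase genes NCU00977 (log2 difference 1.22) and NCU04280 (1.10) and *tca-4* (1.30), and 2 fell, the malate dehydrogenase gene NCU04122 (−1.46) and *tca-2* (−1.44), a count of 5 of 20, beside 13.5% of all genes, that was 3 to 5 when single libraries were left out. On cellobiose 6 of the 20 were higher and 0 lower against the other nine, where 7.19% of all genes were higher and 10.5% lower. The widest range was that of *tca-2* (18.2-fold), from 596 ± 82.5 CPM on cellobiose to 32.7 ± 8.37 on maltose (SD, n = 3), followed by *cit-1*, a citrate synthase gene (6.54-fold), and NCU00977 (5.64-fold).

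The gene next to *tca-2*, 302 bp away on chromosome I, is NCU02481, annotated as a mitochondrial 2-methylisocitrate lyase, a relative of isocitrate lyase that acts in propionyl-CoA breakdown. It was highest on cellobiose (449, 416 and 396 CPM) and lowest on maltose (29.3, 33.3 and 33.5 CPM). Against the other nine it was called higher on cellobiose, fructose and mannose and lower on avicel, maltose, sorbose and trehalose. Without mannose replicate 2 the mannose value fell from 1.17 to 0.19 on the log2 scale and was not called. In glycerol against fructose it stood at −1.25 (adjusted p = 0.0132), and it was called there by DESeq2, in the fit of the 6 libraries alone and without mannose replicate 2.

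Peroxisome biogenesis, the making of the organelle that houses isocitrate lyase and malate synthase in *N. crassa*, was followed by 20 *pex* genes. In edgeR's test 0 of 20 passed both thresholds in glycerol against fructose, where 13.5% of all genes did. At an adjusted p under 0.01 alone 5 passed, with 10 at an unadjusted p under 0.05 and 0 called by DESeq2. Against the other nine sources 0 of 20 passed both thresholds on any source by either tool, where 3.26% to 18.0% of all genes did in edgeR's test. At an adjusted p under 0.01 alone, from 1 on xylose to 13 on xyloglucan passed in edgeR's test, with 4 to 16 at an unadjusted p under 0.05. These genes varied over the sources within a small range. The widest was *pex11*, which encodes a peroxisome proliferation factor, at 3.23-fold between 418 CPM on fructose and 129 CPM on trehalose, and *pex7* followed at 3.04-fold.

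A list of 9 genes held one-way steps of glycolysis, which oppose the gluconeogenic enzymes. It also held genes annotated as 6-phosphofructo-2-kinase or fructose-2,6-bisphosphatase, which are not themselves steps of glycolysis. Of these 9 genes, 1 rose in glycerol against fructose (7.99% of all genes), the 6-phosphofructo-2-kinase gene NCU01728 (log2 difference 1.07, adjusted p = 0.00151). Its source means were no higher than 13.8 CPM, and none of the one-way steps themselves was called. Leaving out single libraries gave counts of 0 to 2. Of 4 genes of glycerol entry 1 rose, the glycerol-3-phosphate dehydrogenase gene NCU05454. It stood at 1586, 1584 and 1515 CPM on glycerol and at 529, 356 and 430 CPM on fructose, with a log2 difference of 1.83 ± 0.19 (SE, adjusted p = 4.23e-08).

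The 2 regulators listed behaved differently from each other. The gene for the acetate regulator *acu-15* stayed between 430 CPM on trehalose and 726 CPM on xyloglucan and was called on no source. The gene for the carbon catabolite repressor *cre-1* ranged 31.2-fold, from 33.0 ± 6.34 CPM on mannose to 1030 ± 280 CPM on maltose (SD, n = 3), with 961 CPM on trehalose, 75.4 on xyloglucan and 47.0 on fructose. It was called lower on fructose, mannose and xyloglucan and higher on maltose, sorbose and trehalose, and it rose in glycerol against fructose (2.08 ± 0.20, SE, adjusted p = 1.51e-08). On mannose its values were 29.3, 40.3 and 29.4 CPM, and without replicate 2 its log2 fold change was −3.05 after −2.88. On cellobiose and fructose, where *acu-3* had its highest means, *cre-1* stood at 379, 285 and 376 CPM and at 64.5, 33.7 and 42.9 CPM.

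**Figure D5:**
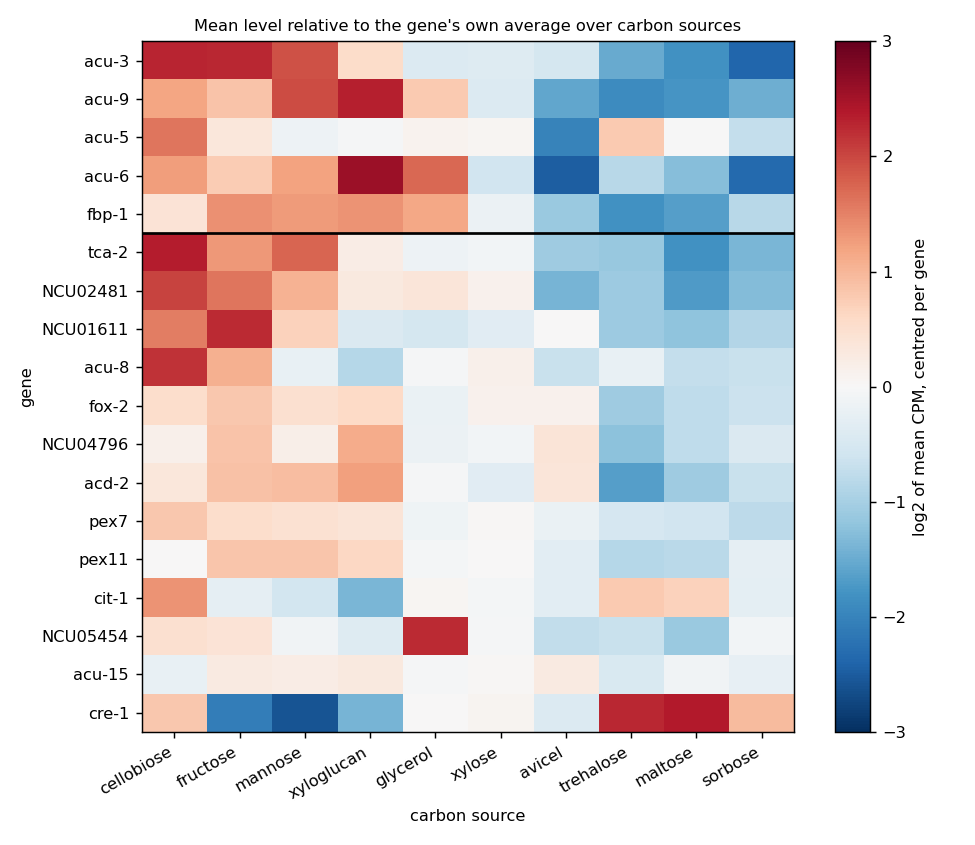
Mean level of the 5 genes (above the line) and of 13 genes around the pathway by carbon source, as log2 of the mean CPM centred on each gene's own average. *tca-2*, NCU02481 and NCU01611 are highest on cellobiose or fructose and low on maltose, NCU05454 is highest on glycerol, *acu-15* is nearly flat, and *cre-1* is highest on maltose and trehalose and lowest on mannose.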

How the data were processed

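Cultures of the wild type strain were sampled on 10 carbon sources with 3 biological replicates each. Reads whose bases all passed a quality limit in the FASTX-Toolkit were mapped by the authors with TopHat 2.0.4 against transcripts predicted from the OR74A genome, and the raw counts per gene that the authors deposited were made with HTSeq 0.6.0. Reads outside genes, ambiguous reads and reads placed more than once are separate totals in each table (outside genes 2.43% to 8.79%) and entered no library size. The authors tested such counts with DESeq2 1.10.1. Whether counting used strand is not given in the sources used here.

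The tests used edgeR 4.0.16 under R 4.3.3. Genes were filtered with filterByExpr (8501 of 9758 kept), libraries were scaled by TMM, and 1 quasi-likelihood model with a mean per carbon source was fitted to all 30 samples. Each carbon source was compared with the mean of the other nine, glycerol was compared with fructose, and an F test asked whether a gene varied. P-values were adjusted by the Benjamini-Hochberg method over the 8501 genes of a comparison, and a gene was called at a fold over 2 and an adjusted p under 0.01 (an adjusted p under 0.01 alone for the F test and for neighbours in an order of levels). Standard errors are the log2 fold change over the square root of F. CPM are TMM-scaled counts per 1000000 reads, and likeness was measured over log2 CPM (prior count 1) among genes with a mean of at least 10 CPM. Symbols and positions came from RefSeq assembly NC12 (9757 of 9758 identifiers matched).

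Replicate numbers came from the labels. Over 135 same-numbered pairs the deviations from the group means had a mean correlation of 0.07, with 52 pairs over 0.1, so the numbers were not taken to pair the samples. Alternatives were DESeq2 1.42.0, library size scaling alone, no low count filter, the replicate number as a block, a covariate for reads outside genes, the 10 most counted genes left out, a fit of the glycerol and fructose samples alone, a test against a fold of 2 (glmTreat), and each library left out in turn. A robust estimate of the spread was added after the data were seen. Genes were named by rule: the 5 genes, up to 3 increases and 3 decreases of each pathway list in glycerol against fructose, the 3 widest ranging genes of the citrate cycle and acetyl unit lists, both regulators, the methylisocitrate lyase gene, and the 3 genes most like each of the 5. *pex11* was named after its values were seen. The genes, lists and rules were chosen with earlier results of these data known. The lists were drawn from RefSeq symbols and from product names in the study's own gene tables, so they are partial.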

Additional observations from a re-analysis of the deposited data

How the results depend on the processing

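Of 395 log2 fold changes of the 5 genes computed in other settings, 388 kept their direction and their side of the thresholds, 1 lost its call, 3 gained one and 3 changed sign. The sign changes were values near 0 with no call, *acu-5* maltose against the other nine (0.045 with library size scaling alone and 0.011 with the replicate block) and *acu-5* xyloglucan against the other nine (0.026 with library size scaling alone). With library size scaling alone, 4 of the 5 genes changed on trehalose in place of 2, since *acu-3* (−1.78) and *acu-6* (−1.03) passed. With glmTreat, which tests against a fold of 2, 0 of the 5 genes changed in glycerol against fructose (*acu-3* adjusted p = 0.0458), where it called 349 genes in place of 1146, with 0 of the citrate cycle list and 1 of the acetyl unit list. With the replicate block, which the numbers do not show to be a pairing (11 of 30 libraries correlated best with their own number), the count of calls stayed at 28 and no call of the 5 genes changed. Of the 50 mean levels 4 moved by more than 1 SD without TMM.

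When libraries were left out 1 at a time, 1613 of 1650 values were the same in this sense. The calls against the other nine numbered 27 to 30, and in glycerol against fructose 0 to 1. The values that changed sign ran from −0.049 to 0.72 for *acu-5* on fructose, −0.25 to 0.26 on maltose, −1.22 to 0.19 on mannose, −0.086 to 0.087 on xyloglucan, −0.058 to 0.17 on xylose and −0.59 to 0.17 in glycerol against fructose, from −0.40 to 2.66 for *acu-3* on mannose, and from −0.37 to 0.29 for *acu-9* in glycerol against fructose. The cause of these changes was not tested. With 3 libraries a source and mannose replicate 2 included, the wide spread of *acu-3* limits what its comparisons can separate. Without mannose replicate 2 the F statistic of *acu-3* over the sources was 44.9 in place of 13.3.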
